A study of Bos taurus with 6 samples.

Results

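Albumin and haptoglobin are plasma proteins that the liver makes and secretes, and their transcripts were measured here in 6 libraries of cattle liver biopsies. Both genes were chosen by identifier, ENSBTAG00000017121 for albumin (ALB) and ENSBTAG00000006354 for haptoglobin (HP), names credited to the Ensembl cattle annotation that no table used here could check. They are 2 of 23833 genes in the count table, both identifiers were present, and both passed the filter on low counts that left 14839 genes to test. The table itself carries no gene symbols.

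The biopsies came from Angus x Simmental cattle, with 3 libraries from cattle that received rumen-protected niacin and 3 from cattle that did not. Replicate numbers were given here in accession order and only name libraries. Niacin is a form of vitamin B3 from which cells can make NAD, and rumen protection keeps rumen microbes from degrading it. Both groups ate Bermudagrass hay freely, with a daily supplement per animal of 1.61 kg of fescue seed free of endophyte, 1.61 kg of a corn and soybean pellet and 0.1 kg of molasses. The sources used here do not give the niacin dose, the duration of feeding or the age of the animals. Each library has its own code, whose middle part ends in M in 2 libraries and F in 1 library of each group (replicate 2 in both); what the letter stands for is not stated. Library totals were 54478409, 111478194 and 91216378 counts in niacin replicates 1, 2 and 3. In control replicates 1, 2 and 3 they were 57315443, 48593701 and 48670988 counts.

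Albumin is the main protein of plasma, where it carries fatty acids, bilirubin and other ligands and maintains oncotic pressure. Haptoglobin binds haemoglobin released from red cells and hands it to macrophages for removal. The liver changes its output of both during the acute-phase response to infection or injury: cytokines such as interleukin-6 raise haptoglobin transcription, while albumin synthesis falls, so the former is called a positive and the latter a negative acute-phase protein. In cattle, haptoglobin is one of the most responsive acute-phase proteins and is commonly measured in serum as a sign of inflammation.

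Neither gene differed between niacin and control liver beyond the spread between libraries, and that spread was of very different size for the 2 genes. Albumin transcripts varied by 2.24-fold over all 6 libraries. Haptoglobin transcripts varied by 23.7-fold, with a range of 8.72-fold inside the niacin group and 8.93-fold inside the control group. Haptoglobin had the largest within-group spread of the 143 tested genes with a mean of at least 1000 CPM (counts scaled to a library of 1e+06).

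Albumin, the negative acute-phase protein, took more counts than any other gene in each of the 6 libraries. These are counts per gene, not corrected for transcript length. Its share of all counts was 4.45% in niacin replicate 1, 4.36% in niacin replicate 2 and 6.97% in niacin replicate 3. The control shares were 4.99%, 4.26% and 3.43%, in the order of replicates 1, 2 and 3. Albumin is a defining transcript of hepatocytes, and its first place held in both groups of biopsies labelled as liver. Other markers of hepatocytes or of other liver cells were not analysed here, since the identifiers had no symbols to match.

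After scaling between libraries (TMM, the trimmed mean of M-values), albumin stood at 44065, 45983 and 68261 CPM in niacin replicates 1, 2 and 3. In control replicates 1, 2 and 3 it stood at 53077, 44293 and 30469 CPM. The groups overlapped: niacin replicate 3 was the highest library and control replicate 3 the lowest, with the other 4 close together in between. The order from the top was niacin replicate 3, control replicate 1, niacin replicate 2, control replicate 2, niacin replicate 1 and control replicate 3, and the middle 4 lay closer to each other than the SD of either group.

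Mean albumin was 52770 ± 13450 CPM with niacin against 42613 ± 11397 CPM in controls (SD, n = 3 each). The fold of niacin over control was 1.24, a log2 fold of 0.31 ± 0.37 (SE), with a 95% interval of 0.716 to 2.14-fold. It did not pass edgeR's quasi-likelihood test (adjusted p = 0.651 over all genes tested). Of all genes tested, 17.7% were called at an adjusted p under 0.05, 14.2% higher and 3.46% lower with niacin, and the groups did not overlap for 34.4%. The share called lower rested on 513 genes, a number that leaving out 1 library moved to between 171 (without niacin replicate 1) and 1157 (without niacin replicate 3). Leaving out control replicate 1, 2 or 3 gave 283, 209 or 286.

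Among the 143 tested genes of at least 1000 CPM, 21.7% were called, 7.69% higher and 14% lower, and the groups did not overlap for 42%. The median log2 fold in that class was -0.25, with 54 genes above 0 and 89 below, against 0.07 over all genes tested. The log2 fold of albumin ranked 36 from the top in that class. The albumin share of all counts gave a similar picture without TMM factors, at 5.26% ± 1.48 with niacin against 4.23% ± 0.779 in controls (SD, n = 3 each). This difference missed the threshold in a two-sided exact permutation test (p = 0.4, where 3 libraries against 3 cannot go below 0.1). It was 1.03 percentage points over all libraries, 0.175 without niacin replicate 3 and 0.631 without control replicate 3. Leaving out any other library gave from 1.05 (control replicate 2) to 1.48 (niacin replicate 2). In bulk tissue, a change in the number of cells that make a transcript cannot be told apart from a change in the amount per cell.

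Haptoglobin, the positive acute-phase protein, stood at 2947, 25696 and 11935 CPM in niacin replicates 1, 2 and 3. In control replicates 1, 2 and 3 it stood at 3529, 1084 and 9682 CPM. The groups overlapped here too: niacin replicate 1 lay below control replicates 1 and 3, while niacin replicate 2 was the highest library and control replicate 2 the lowest. The order from the top was niacin replicate 2, niacin replicate 3, control replicate 3, control replicate 1, niacin replicate 1 and control replicate 2.

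**Figure D1:**
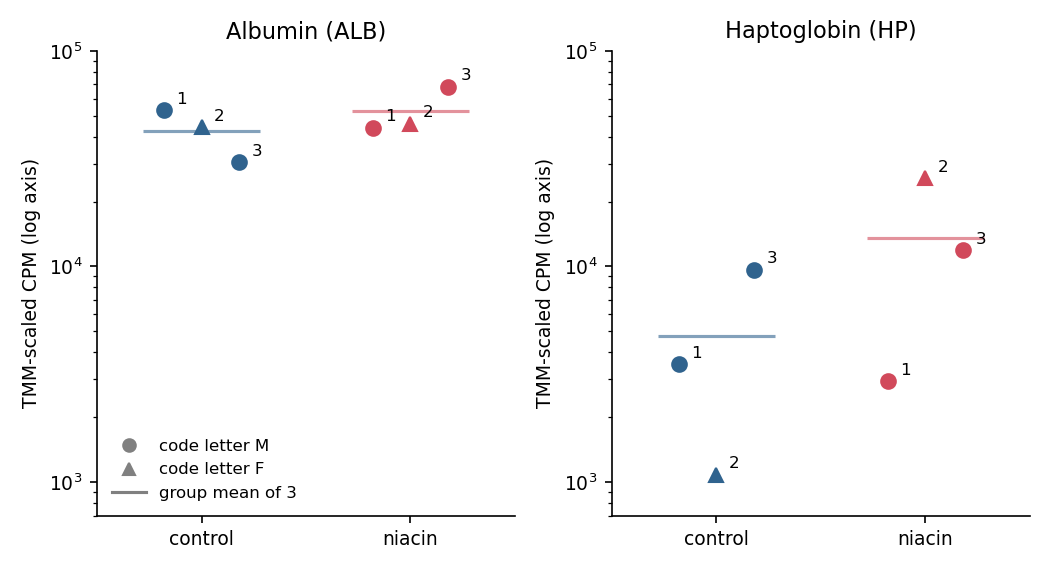
TMM-scaled CPM on a log axis for albumin (left) and haptoglobin (right) in each library, numbered by replicate, with the code letter M as circles and F as triangles and the group mean as a line. The 6 albumin values lie within 2.24-fold of each other, while haptoglobin runs from 1084 to 25696 CPM with both groups spread over most of that range.

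Haptoglobin took up 0.298% of counts in niacin replicate 1, 2.44% in niacin replicate 2 and 1.22% in niacin replicate 3. The control shares were 0.332%, 0.104% and 1.09%, in the order of replicates 1, 2 and 3. By count, haptoglobin ranked 41, 4 and 6 among all genes of the niacin libraries and 37, 141 and 10 among those of the control libraries, in the same order. Its place thus ranged from 4 to 141 across biopsies.

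Mean haptoglobin was 13526 ± 11457 CPM with niacin against 4765 ± 4430 CPM in controls (SD, n = 3 each), so the SD was 84.7% of the mean with niacin and 93.0% in controls. The fold of niacin over control was 2.84, a log2 fold of 1.51 ± 1.04 (SE), with a 95% interval of 0.480 to 16.8-fold. It did not pass edgeR's quasi-likelihood test (adjusted p = 0.421). These libraries therefore bounded the haptoglobin difference poorly in either direction, although its log2 fold ranked 7 from the top among the 143 abundant genes. The share of all counts was 1.32% ± 1.07 with niacin against 0.509% ± 0.517 in controls (SD, n = 3 each, two-sided exact permutation p = 0.3). That difference of 0.808 percentage points was 0.249 without niacin replicate 2, 1.32 without niacin replicate 1 and 0.0463 among the libraries with the code letter M.

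Single libraries set the size of the haptoglobin fold. It was 1.37 without niacin replicate 2, the highest library, and 5.83 without control replicate 3, the highest control. Without niacin replicate 1 it was 3.96, with an unadjusted edgeR p of 0.0312 and an adjusted p of 0.163. The adjusted p of the folds with 1 library left out stayed above 0.05 in all 6 cases. Counting error was small beside this spread, at most 0.444% of the haptoglobin count in any library (counting error only, since reads are not independent molecules).

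The highest and the lowest haptoglobin libraries were the 2 with the code letter F. Within the 4 libraries with the letter M, a split chosen after the values were seen, haptoglobin was 1.12-fold higher with niacin (edgeR log2 fold 0.16 ± 0.50 SE, adjusted p = 0.920). The niacin values of 2947 and 11935 CPM lay on either side of the controls at 3529 and 9682 CPM. That SE draws on the spread of other genes, while haptoglobin itself had an SD of log2 CPM of 1.24 within groups in these libraries. Between the 2 libraries with the letter F the ratio was 23.7, with 1 library per group and so no replicate. Chosen after the values were seen, an edgeR interaction test of the difference between the folds of the 2 letters passed (adjusted p = 0.00134). It called 0.364% of genes. An exact permutation of the letters within each group gave p = 0.222. Its 9 arrangements cannot give a p below 0.111, so the permutation could not have passed the threshold. The p also lay above that floor, since another arrangement gave a difference at least as large in size. The corresponding values for albumin were 1.34-fold (edgeR log2 fold 0.42 ± 0.51 SE, adjusted p = 0.741) within the letter M and a ratio of 1.04 within the letter F.

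**Figure D2:**
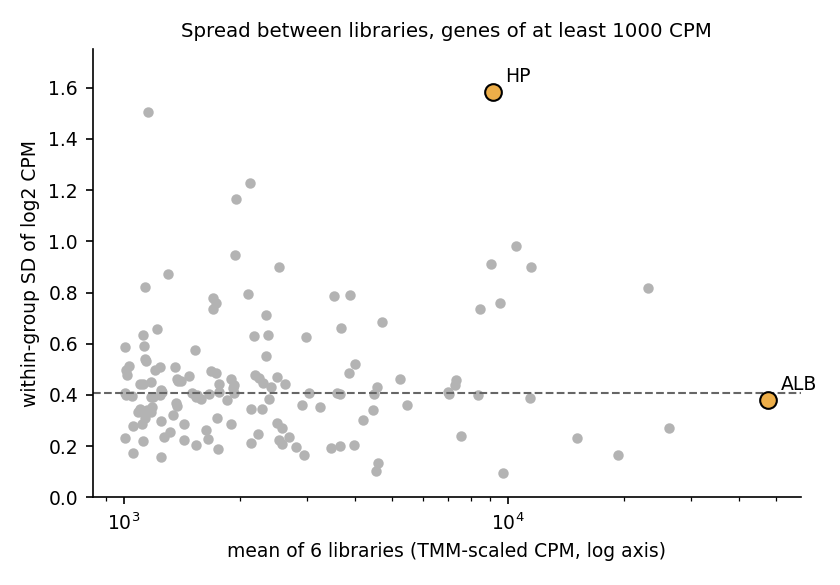
Within-group SD of log2 CPM (4 degrees of freedom) against the mean of the 6 libraries on a log axis for the 143 tested genes of at least 1000 CPM, with the class median as a dashed line. Haptoglobin, at 1.58, lies above all other genes of the class, and albumin, at 0.38, lies near the median of 0.41.

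The contrast in spread held within each group. The within-group SD of log2 CPM was 1.58 for haptoglobin and 0.38 for albumin, with a median of 0.41 in the class of 143 abundant genes. Haptoglobin ranked 1 in that class by its SD in the niacin libraries (1.58, class median 0.35) and 2 by its SD in the control libraries (1.58, class median 0.41). Albumin ranked 73 and 75 by the same measures, with SDs of 0.35 and 0.41. These ranks are descriptions of 3 libraries per group and were not tested.

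The ratio of the 2 transcripts within a library does not depend on the scaling between libraries. Haptoglobin had 6.69, 55.9 and 17.5 counts per 100 albumin counts in niacin replicates 1, 2 and 3. In control replicates 1, 2 and 3 it had 6.65, 2.45 and 31.8. Niacin replicate 1 and control replicate 1 were nearly equal, and control replicate 3 lay above 2 of the 3 niacin libraries.

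**Figure D3:**
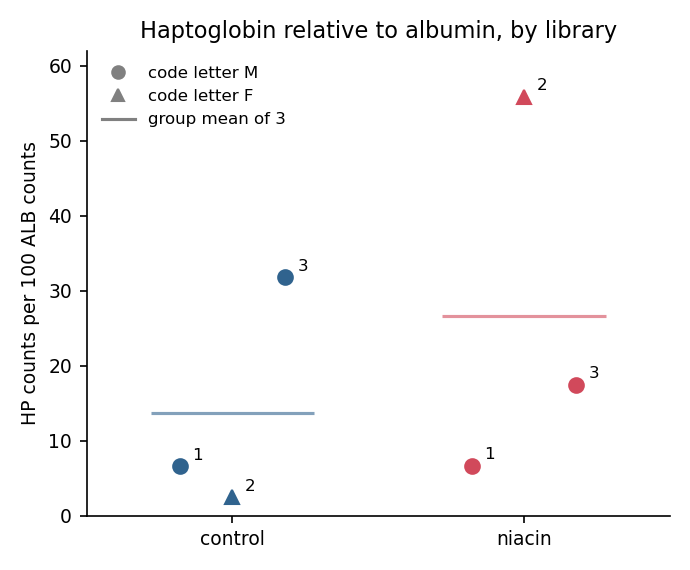
Haptoglobin counts per 100 albumin counts in each library, numbered by replicate, with the code letter M as circles and F as triangles and the group mean as a line. The values run from 2.45 in control replicate 2 to 55.9 in niacin replicate 2, and the groups overlap.

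The mean log2 ratio of haptoglobin to albumin counts was -2.42 ± 1.53 with niacin against -3.64 ± 1.86 in controls (SD, n = 3 each). The difference was 1.22, or 2.33-fold (two-sided exact permutation p = 0.4, where 3 libraries against 3 cannot go below 0.1). Its direction reversed in the 4 libraries with the code letter M, where niacin was lower by a log2 difference of -0.43. Leaving out niacin replicate 2 reduced the difference to 0.43, and leaving out control replicate 2 reduced it to 0.36. It was 2.21 when control replicate 3 was left out and 1.96 when niacin replicate 1 was.

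Albumin and haptoglobin levels showed no detectable relation across the 6 libraries. The correlation of log2 CPM was 0.06 (Pearson, exact permutation p = 0.95) and 0.37 (Spearman, exact permutation p = 0.497). Without niacin replicate 3 and control replicate 3, the libraries farthest from the albumin median, Pearson's r was 0.12 over 4 libraries. Control replicate 3 combined the lowest albumin with the third highest haptoglobin, whereas niacin replicate 3 combined the highest albumin with the second highest haptoglobin. Together the 2 genes held between 4.75% and 8.19% of counts with niacin and between 4.37% and 5.32% in controls (two-sided exact permutation p = 0.2).

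The genes whose pattern over the 6 libraries was most like that of each member were sought among the other 6492 tested genes with a mean of at least 10 CPM, by Pearson's r of log2 CPM, as a description. The closest to haptoglobin was ENSBTAG00000010303 (r = 0.99 over 6 libraries), at 49.2, 104 and 80.4 CPM in niacin replicates 1, 2 and 3 and at 51.4, 35.6 and 63.6 CPM in control replicates 1, 2 and 3. It placed the 6 libraries in the same order as haptoglobin, over a far narrower range. The next was ENSBTAG00000047780 (r = 0.98 over 6 libraries), from 17.0 CPM in control replicate 2 to 33.2 CPM in niacin replicate 2.

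The closest to albumin were ENSBTAG00000002049 (r = 0.95 over 6 libraries), from 148 CPM in control replicate 3 to 256 CPM in niacin replicate 3, and ENSBTAG00000003679 (r = 0.95 over 6 libraries), from 25.5 to 53.0 CPM in the same libraries. None of the 4 genes passed the edgeR test between groups, with adjusted p from 0.251 to 0.784. The sources used here pair none of these 4 identifiers with a symbol. An r of at least 0.9 was found for 25 genes with haptoglobin and 9 with albumin, 0.385% and 0.139% of those compared. An r of -0.9 or below was found for 29 and 3 genes, 0.447% and 0.0462%. How often unrelated genes reach such an r over 6 libraries was not tested, so these counts do not show shared regulation.

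**Figure D4:**
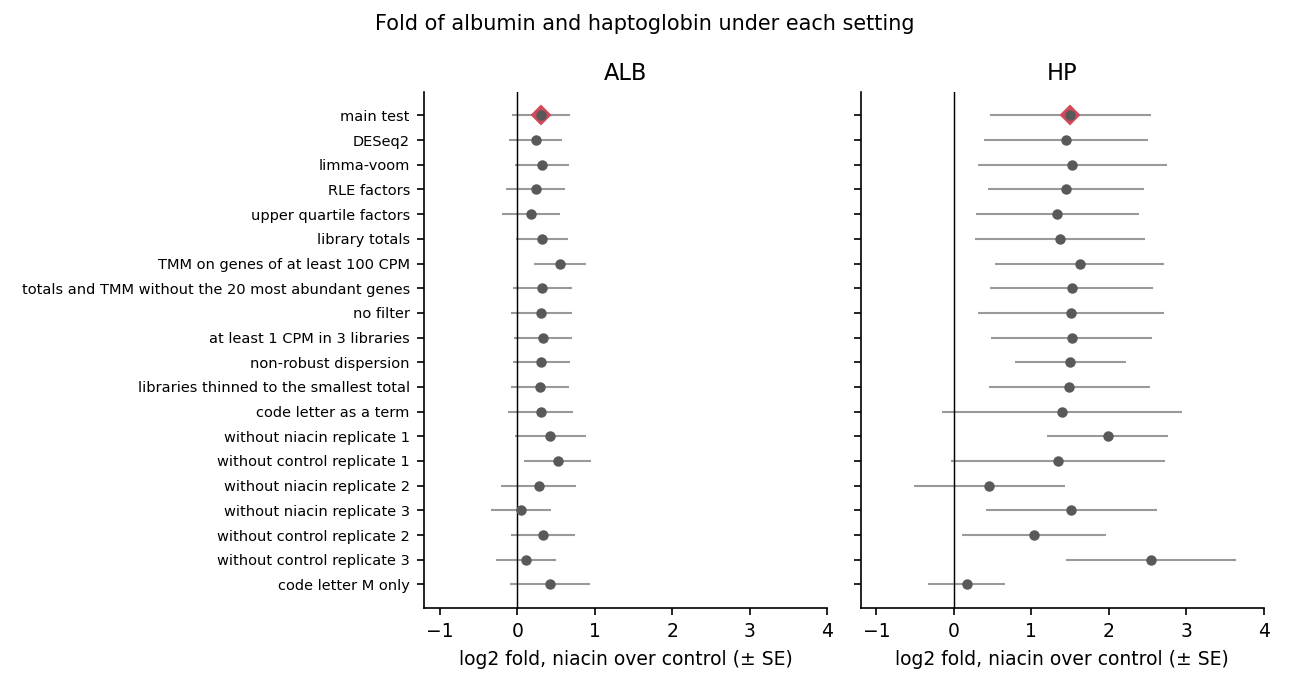
Log2 fold of niacin over control with its SE for albumin (left) and haptoglobin (right) in the main test (diamond) and under each other tool, scaling, filter, left-out library or code letter setting. Albumin stays between 0.05 and 0.55, and haptoglobin runs from 0.16 in libraries with the letter M to 2.54 without control replicate 3.

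Each of the 19 alternative settings of the niacin and control comparison left both genes uncalled and with a fold above 1. Albumin ran from 1.03-fold, without niacin replicate 3, to 1.46-fold, when TMM used only the genes at 100 CPM or more, and its adjusted p from edgeR, DESeq2 or limma was at least 0.319. Haptoglobin ran from 1.12-fold to 5.83-fold, with an adjusted p of at least 0.163. A p above the threshold does not show that levels were equal. The intervals given above are those of the main edgeR fit and depend on its model. On the same 6 libraries, the SE of the haptoglobin log2 fold was 1.04 in that fit. It was 0.72 with non-robust dispersion and 1.54 with a code letter term.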

How the data were processed

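Poly(A) RNA of liver biopsies was sequenced as 150-bp paired-end reads, from strand-specific libraries made with 1500 ng of total RNA, per the labels' protocols. The authors deposited raw counts for each Ensembl gene, 1 column per library. The submitters' processing notes name HTSeq, DESeq2, TopHat2 2.1.1, Trimmomatic 0.36, FastQC 11.5, bedtools 2.30.0 and Cufflinks 2.2.1 without role or order. The genome build, annotation release and strand setting of the counting were not given in the sources used here, so no coordinates are printed. Reads shared with overlapping or similar genes could not be checked.

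Symbols for both members were given with their identifiers, credited to the Ensembl cattle annotation, and were not checked against it. Of 37063 genes in the RefSeq table used here (ARS-UCD2.0), 0 had an Ensembl identifier, so the planned lists of acute-phase, plasma protein, regulator, haem-handling and cell type marker genes could not be applied. Members, lists and tests were chosen with earlier results of these data known.

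The agent label set the groups. Nothing states that each code is a separate animal, so p-values reflect only the spread among these libraries, which may be technical. Counts were filtered (filterByExpr, minimum count 10), scaled with TMM and compared on all 14839 genes with edgeR 4.0.16 (R 4.3.3, quasi-likelihood F test, robust, Benjamini-Hochberg, threshold 0.05). SE is the log2 fold over the square root of F, and 95% intervals use the t distribution with the test's degrees of freedom. Log2 CPM used a prior count of 2. Shares and ratios were compared by exact permutation (scipy 1.17.1). The named genes were the members and, for each, the 2 genes most alike in pattern. Alternatives were DESeq2 1.42.0, limma 3.58.1 (voom), other scalings, filters, thresholds and dispersion, thinning, a code letter term and each library left out. On simulated counts of this comparison, 14466 genes were tested. Calls were made for 5 of 100 genes changed 2-fold, 80 of 100 changed 4-fold and 9 of 14639 unchanged genes. The changed genes were a far smaller share of all genes than the 17.7% called in the data. They were drawn at random, not for a spread like that of haptoglobin, so these rates need not hold for the real comparison.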

Additional observations from a re-analysis of the deposited data

Results flagged for a closer look

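The fitted haptoglobin fold was larger between the libraries with the code letter F than among those with the letter M. This split was chosen after the values were seen. The log2 fold of niacin over control was 4.57 between the 2 libraries with the letter F and 0.17 among the 4 with the letter M, a difference of 4.40 ± 0.92 (SE). The interaction term had an edgeR adjusted p of 0.00134. Limma gave 4.55 with an adjusted p of 3.58e-05. The interaction was called for 54 of 14839 genes (0.364%) with edgeR and for 36 with limma, and haptoglobin ranked 18 and 7 by p. The term was chosen after it was seen that the F libraries held the highest and the lowest haptoglobin level, so the p-values are not independent evidence. The letter F has 1 library per group, whose spread the tests take from other genes and libraries. The 4 M libraries alone had an SD of 1.24 within groups, which would give the same difference an SE of 2.15. An exact permutation of the letter within each group (9 arrangements, smallest possible p 0.111) gave p = 0.222, two-sided. Another arrangement of the letter thus gave a difference at least as large in size. For albumin the difference was -0.37 ± 0.89 (SE, edgeR unadjusted p = 0.674). What the letter stands for is not stated, and whether it bears on haptoglobin cannot be told apart from differences between single libraries.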

How the results depend on the processing

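For albumin and haptoglobin, all 19 alternatives each kept the direction and stayed above the threshold. The share differences kept their direction in all 8 alternatives each, and the ratio of haptoglobin to albumin in 7 of 8, with -0.43 for the code letter M. The total of 2622 calls was 1417 at an adjusted p under 0.01, where 1313 genes were higher and 104 lower. The 513 lower genes became 943 with DESeq2, 820 with upper quartile factors, 206 with TMM on genes of at least 100 CPM, 902 at an adjusted p under 0.10 and 182 in libraries with the letter M. The cause was not tested. Higher genes were 80.4% of calls, 71.6% with DESeq2, 69.6% with upper quartile factors and 92.2% with TMM on genes of at least 100 CPM. These last 2 scalings moved the median log2 fold of all genes from 0.07 to -0.07 and 0.27, and albumin from 0.31 to 0.17 and 0.55. With 1 library left out, all calls ran from 1653 to 3549 and lower genes from 171 to 1157. The interaction term, and the code letter M setting for folds and gene counts, were chosen after seeing the data. For shares and the ratio, the code letter M setting was listed as planned, but with earlier results of these data known. No paired analysis was possible because no label numbers the replicates, and the numbers used here follow accession order. Depths below those deposited were tried only by thinning to the smallest total, which gave 1.23-fold for albumin and 2.81-fold for haptoglobin.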
